A study of Mus musculus with 6 samples.

Results

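Myosin-binding proteins C and H form a small family of thick filament proteins. The 5 genes examined are *Mybpc1*, *Mybpc2*, *Mybpc3*, *Mybph* and *Mybphl*, out of 56262 genes listed in the count table. They were chosen by the log2 fold change of KO over WT, because that of the fast isoform *Mybpc2* was already known to be among the largest in these samples, and the rest of the family was added by name. The values that compare WT and KO are therefore given for these genes as a description, without p-values. RNA was sequenced from leg muscle of mouse fetuses at embryonic day 18.5, in 3 WT samples and 3 *SYISL* KO samples. *SYISL* is a long noncoding RNA gene located within *Synpo2*, and KO fetuses lack it. The parents of each fetus had the same genotype, so WT fetuses came from WT dams and KO fetuses from KO dams, and the genotype of the fetus cannot be told apart from that of the dam, her gut microbiota or the litter. The labels give neither the strain nor the sex of the fetuses, nor whether a sample is 1 fetus or a pool. No treatment is named for either group.

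Thick filaments are bundles of myosin molecules, and myosin-binding protein C (MyBP-C) is bound at regular intervals along their middle zones. It is built of immunoglobulin and fibronectin domains, holds myosin heads near the filament backbone, reaches to the thin filament and tunes how many cross-bridges form. Skeletal muscle has a slow isoform (*Mybpc1*), which is also made in fast fibers, and a fast isoform (*Mybpc2*), and the heart has its own (*Mybpc3*). MyBP-H (*Mybph*) is a shorter relative of skeletal muscle, and its paralog MyBP-H-like (*Mybphl*) is known from the atria and conduction system of the heart.

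The WT samples held 82054811 to 102233181 counts and the KO samples 93495519 to 101014083. Levels are counts per 1000000 counts (CPM), with library totals scaled by the TMM method of edgeR. A floor of 3 counts corresponded to 0.0284 to 0.0363 CPM, which covers counting error only. *SYISL* has no entry in the annotation used, so its loss was not checked by counts, and its host gene *Synpo2* had 10812 to 14672 counts in WT and 18054 to 22270 in KO (log2 fold change 0.66, called higher). All 13 genes of a list expressed in every muscle fiber type (such as *Ttn*, *Neb* and *Des*) were measured, with a summed level of 6490 to 6829 CPM in WT and 10715 to 12398 CPM in KO. Their presence shows muscle RNA in every sample, but not how much of the tissue was muscle. In WT this sum was below that of the keratinocyte genes given next. The samples also differed in other tissues. Of 12 keratinocyte genes, all were called lower in KO, with a sum of 17740 to 26380 CPM in WT and 810 to 945 CPM in KO, and all 5 erythroid genes were called lower (3228 to 3994 against 474 to 548 CPM). All 7 adipocyte genes were called higher in KO (114 to 147 against 360 to 421 CPM). No gene of these 3 lists was at 0 in all samples. Among 6 chondrocyte, 5 osteoblast, 5 fibroblast, 4 endothelial, 4 glial and 4 macrophage genes, the numbers called higher were 1, 1, 0, 0, 1 and 2, and the numbers called lower 3, 1, 0, 0, 0 and 0. Of all genes tested, 8.31% were called higher and 8.39% lower. In whole tissue, fewer cells of a type and less RNA per cell cannot be told apart, and the part of these tissues in the values below was not tested.

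The 250 bases before the RefSeq start site (GRCm38.p6) are shown for the 3 members with the highest levels, as *Mybpc1* and *Mybpc2* were higher in KO and *Mybph* was not. *Mybpc1* (chr10:88605153-88605402) and *Mybpc2* (chr7:44524670-44524919) lie on the minus strand and *Mybph* (chr1:134193198-134193447) on the plus strand. Each sequence reads 5′ to 3′ toward the start site, and capitals mark the motif matches found on either strand.
Mybpc1: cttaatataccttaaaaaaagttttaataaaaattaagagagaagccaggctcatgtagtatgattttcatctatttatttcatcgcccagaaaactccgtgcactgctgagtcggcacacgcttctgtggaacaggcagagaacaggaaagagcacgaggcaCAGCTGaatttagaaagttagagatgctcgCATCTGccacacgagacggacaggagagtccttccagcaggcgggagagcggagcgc
Mybpc2: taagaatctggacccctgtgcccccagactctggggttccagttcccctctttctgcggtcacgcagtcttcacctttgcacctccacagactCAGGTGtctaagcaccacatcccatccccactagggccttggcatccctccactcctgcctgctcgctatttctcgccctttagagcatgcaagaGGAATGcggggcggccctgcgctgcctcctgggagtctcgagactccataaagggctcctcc
Mybph: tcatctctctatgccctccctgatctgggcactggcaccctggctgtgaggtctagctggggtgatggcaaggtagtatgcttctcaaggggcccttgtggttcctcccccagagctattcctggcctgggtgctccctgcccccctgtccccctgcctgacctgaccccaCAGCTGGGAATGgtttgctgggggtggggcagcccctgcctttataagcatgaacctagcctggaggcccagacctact
The motifs reported are the E-box CANNTG bound by myogenic factors, its form CAGCTG (a subset of CANNTG), the TEAD motif CATTCC, the MEF2 box and the CArG box of SRF. *Mybpc1* held 2 E-boxes, 1 of them CAGCTG. *Mybpc2* held 1 E-box, not of the CAGCTG form, and 1 CATTCC on the other strand, which starts 62 bases before the start site. *Mybph* held 1 CAGCTG directly followed by 1 CATTCC on the other strand. *Mybpc3* held 3 E-boxes, 1 of them CAGCTG, and 1 MEF2 box, and *Mybphl* held no match to these 5 motifs. Over 32817 promoter windows of the same length, 66.2% held CANNTG, 13.0% CAGCTG, 12.6% CATTCC, 2.92% the MEF2 box and 1.47% the CArG box, and the CArG box was in none of the 5 windows. These matches describe letters in a window and are not shown to be bound.

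*Mybpc2*, the fast isoform, showed the widest difference of the family (ENSMUSG00000038670.11, minus strand of chromosome 7 of mm10, 44501699 to 44524656, 28 exon blocks). It stood at 9.48, 6.23 and 8.92 CPM in WT replicates 1, 2 and 3, and at 123, 186 and 182 CPM in KO replicates 1, 2 and 3. The lowest KO sample was thus far above the highest WT sample, and the lowest sample was replicate 2 in WT and replicate 1 in KO. WT averaged 8.21 ± 1.74 CPM and KO 164 ± 35.6 CPM (SD, n = 3 per genotype). The log2 fold change was 4.31 with a standard error of 0.19. Of 22071 genes tested, 7 had a larger log2 fold change, and among the 12371 with a mean of at least 5 CPM the only one was *Gm6969*, a processed pseudogene. The relative spread was alike in the genotypes, with a coefficient of variation of 21.1% in WT and 21.7% in KO. An antisense transcript, *Gm44646*, shares 192 exon bases with *Mybpc2* (5.32% of its exon length) and had 28 to 41 counts in WT and 91 to 177 in KO. Since the strand setting of the counting is not given, reads of the 2 genes cannot be told apart there, but those counts are small beside the 515 to 17758 of *Mybpc2*.

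*Mybpc1*, the slow isoform, was the most abundant member (file ID ENSMUSG00000020061.18, minus strand of chromosome 10, 88518279 to 88605152, 32 exon blocks). In the order of the replicates, WT samples had 1436, 1244 and 1360 CPM and KO samples 2505, 2983 and 2974 CPM. The genotypes did not overlap, and the lowest samples were again WT replicate 2 and KO replicate 1. WT averaged 1347 ± 96.7 CPM and KO 2820 ± 273 CPM (SD, n = 3 per genotype), a ratio of 2.09. The log2 fold change was 1.07 with a standard error of 0.087. Of the 22071 genes, 672 had a larger log2 fold change. An antisense gene, *Gm48752*, shares 252 of its exon bases (5.57%) and was not called.

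*Mybpc3*, the cardiac isoform, was near the lower end of what was measured (ENSMUSG00000002100.15, plus strand of chromosome 2, 91118144 to 91136516, 35 exon blocks). It had 107, 61 and 125 counts in WT replicates 1, 2 and 3 and 51, 42 and 37 counts in KO replicates 1, 2 and 3. The genotypes did not overlap in CPM, with averages of 1.02 ± 0.243 for WT and 0.455 ± 0.0828 for KO (SD, n = 3 per genotype). The log2 fold change was -1.17 with a standard error of 0.22. Counting error alone left the nearest samples unseparated, with exact Poisson 95% intervals of 0.565 to 0.948 CPM for WT replicate 2 and 0.405 to 0.715 CPM for KO replicate 1. The heart muscle markers were mixed. *Nppa*, *Nppb* and *Nkx2-5* had at most 7 counts in any sample and *Tbx20* 1 to 27, while *Gata4* had 17 to 34, *Tnni3* 173 to 336 and *Myh6* 529 to 1275. *Myl7*, an atrial light chain, had 245 to 283 counts in WT and 7 to 10 in KO. Of the 8 cardiomyocyte genes listed, 4 passed the filter on low counts, the sum over all 8 ran from 11.7 to 12.3 CPM for WT and from 14.6 to 17.0 CPM for KO, and none was at 0 in all samples. In that list *Myh6* was called higher, *Myl7* was called lower, as *Mybpc3* was, and *Tnni3* and *Gata4* were not called. The part of heart muscle in the values of *Mybpc3* was not tested.

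*Mybph* did not follow the skeletal MyBP-C genes (ENSMUSG00000042451.12, plus strand of chromosome 1, 134193448 to 134201232, 10 exon blocks). WT samples had 87.4, 103 and 99.6 CPM and KO samples 92.3, 98.5 and 100.03 CPM, and every KO value lay within the WT range. WT averaged 96.5 ± 8.02 CPM and KO 96.9 ± 4.10 CPM (SD, n = 3 per genotype). The log2 fold change of 0.0068 with a standard error of 0.061 changed its sign with library size as the only scaling (-0.062). Its exons overlap those of *Adora1*, an adenosine receptor gene on the other strand, over 1162 bases or 49.9% of its exon length. *Adora1* averaged 5.32 ± 0.647 CPM in WT against 6.79 ± 0.618 CPM in KO (SD, n = 3 per genotype) and was not called. Without the strand setting, reads of the 2 genes cannot be told apart in the shared bases.

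*Mybphl*, whose exons share 89 bases (6.98%) with the antisense gene *Gm12522*, was barely detected (ENSMUSG00000068745.6, plus strand of chromosome 3, 108364911 to 108380057, 9 exon blocks). It had 2, 0 and 5 counts in WT and 8, 19 and 9 counts in KO, and it did not pass the filter on low counts. The 0 of WT replicate 2 allows up to 3.69 counts, or 0.0446 CPM, by the exact Poisson 95% interval. The exact Poisson 95% intervals of WT replicate 3 (1.62 to 11.7 counts) and KO replicate 1 (3.45 to 15.8 counts) overlapped.

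**Figure D1:**
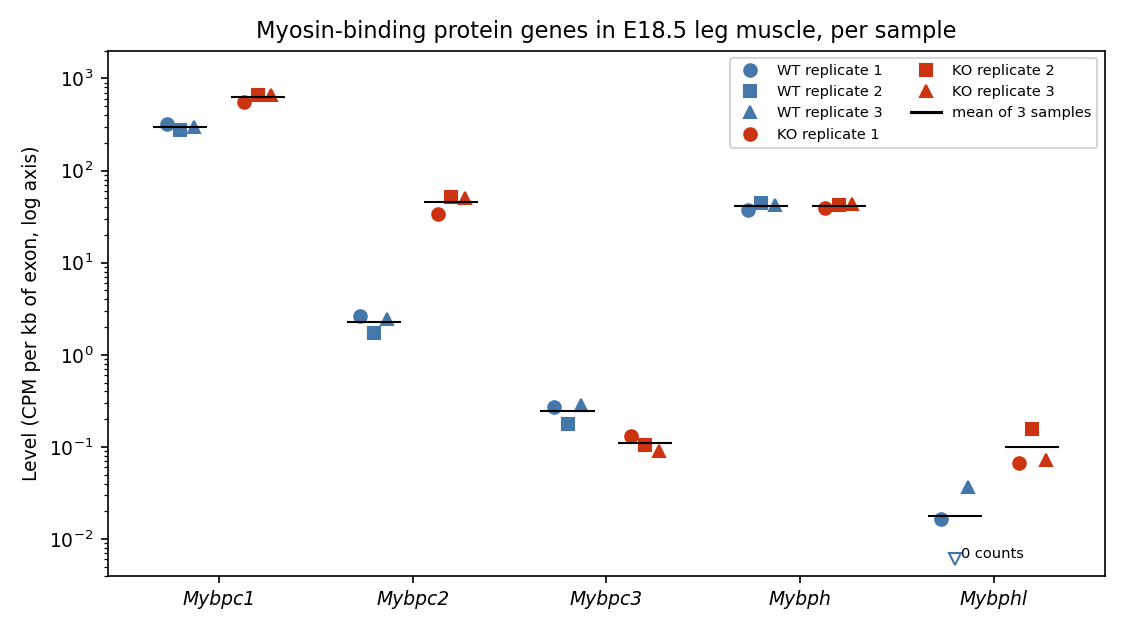
Level of each gene in each of the 6 samples, in CPM per kb of exon on a log axis, with WT in blue, KO in red, a marker shape for each replicate and a black line at the mean of 3 samples. *Mybpc2* moves from 2.27 to 45.4 CPM per kb, next to *Mybph* at about the same level in both genotypes, and the open triangle marks the sample with 0 counts of *Mybphl*. The level of *Mybph* per kb depends on how reads in its overlap with *Adora1* were counted.

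Of the 4 members tested, *Mybpc1* and *Mybpc2* were called higher in KO and *Mybpc3* lower, where a call needs more than 1.5-fold change and an adjusted p below 0.05. Of all 22071 genes tested, 16.7% were called, 8.31% higher and 8.39% lower. The same 3 members had no overlap between genotypes, as did 55.9% of all genes tested, 27.3% with KO higher and 28.5% with KO lower. Because the members were chosen with this comparison known, nothing is read from these counts. Sequence shared with other genes was limited for most members. Of all windows of 100 bases in their transcripts, 3.18% of *Mybpc1*, 0.665% of *Mybpc2*, 0% of *Mybpc3*, 37.4% of *Mybph* and 0% of *Mybphl* occurred in a transcript of another gene, which was the antisense gene that overlaps the member each time and never another member.

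Per length, the order of the family was distinct in WT and overlapped in part in KO. In WT the levels were 297 ± 21.4 CPM per kb for *Mybpc1*, 41.4 ± 3.44 for *Mybph*, 2.27 ± 0.481 for *Mybpc2*, 0.244 ± 0.0585 for *Mybpc3* and 0.0179 ± 0.0186 for *Mybphl* (SD, n = 3 each), and no neighbors in this order overlapped. In KO *Mybpc1* remained highest at 623 ± 60.4 CPM per kb, followed by *Mybpc2* at 45.4 ± 9.85 and *Mybph* at 41.6 ± 1.76. These 2 did not differ beyond their spread, since *Mybpc2* was the lower one in KO replicate 1 (34.0 against 39.6) and the higher one in KO replicates 2 (51.6 against 42.3) and 3 (50.5 against 43.0). *Mybpc3* (0.0914 to 0.131) and *Mybphl* (0.0669 to 0.156) also overlapped in KO. The level of *Mybph* was divided by its full exon length, of which 49.9% overlaps *Adora1*. Without the strand setting, its level per kb, and so its place beside *Mybpc2*, is uncertain. That limit also holds for the shares and the percentages of myosin below that include *Mybph*.

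The make-up of the family was described by the share of each gene. *Mybpc1* made up 88.7%, 85.7% and 86.8% of the summed per-kb level of the 5 genes in WT, and 88.2%, 87.5% and 87.5% in KO. For *Mybpc2* the WT shares were 0.734%, 0.538% and 0.715% and the KO shares 5.42%, 6.85% and 6.73%. For *Mybph* they were 10.5%, 13.7% and 12.4% for WT, then 6.32%, 5.61% and 5.72% for KO. The shares of *Mybpc1* overlapped between the genotypes, and those of *Mybpc2* and *Mybph* did not. *Mybph* itself was level, at 41.4 CPM per kb in WT and 41.6 in KO. Its lower share in KO thus reflects the larger sum of the 5 genes and not a decline of *Mybph*. Put as a ratio of per-kb levels, *Mybpc2* amounted to 0.759 ± 0.114% of *Mybpc1* in WT and 7.22 ± 0.933% in KO (SD, n = 3 each), so the slow isoform outnumbered the fast one in every sample. The sum of the 5 genes was 341 ± 18.9 CPM per kb in WT and 710 ± 72.0 in KO.

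Levels were then set beside the myosin heavy chains, to which these proteins bind. The 9 sarcomeric heavy chain genes listed summed to 1089 ± 66.5 CPM per kb in WT and 1918 ± 115 in KO (SD, n = 3 each). The 3 MyBP-C genes together amounted to 27.9%, 27.2% and 27.4% of that sum for WT and 32.9%, 36.2% and 35.3% for KO, with no overlap. For *Mybph* the WT values were 3.28%, 4.33% and 3.86%, and the KO values 2.22%, 2.15% and 2.15%. As *Mybph* was level per kb, these lower values go with the larger sum of heavy chains in KO. Against only the adult fast heavy chains *Myh1*, *Myh2* and *Myh4*, *Mybpc2* reached 42.3%, 33.4% and 47.5% of their per-kb sum for WT, against 170%, 179% and 163% for KO. The fast heavy chains themselves were 0.507 ± 0.0355% of all 9 in WT and 1.38 ± 0.229% in KO, and reads of these similar neighboring genes could have been split among them by the counting.

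The levels were also set against genes of muscle fibers in general. The geometric mean of the 13 genes expressed in every fiber type ran from 258 to 270 CPM for WT and from 431 to 497 CPM for KO, a difference of 0.83 on the log2 scale. Of the 13, 9 were called higher and 0 lower, against 8.31% and 8.39% of all genes tested. *Tcap* (1.80) and *Trdn* (1.502) were highest and *Smyd1* (0.35) and *Unc45b* (0.14) lowest. When each sample was scaled by this mean, the median of all genes moved to -0.83 and 305 genes were called higher and 16165 lower, against 1835 and 1852 with TMM. On this scale the log2 fold change was 3.47 for *Mybpc2*, 0.23 for *Mybpc1*, -0.83 for *Mybph* and -1.99 for *Mybpc3*. Relative to the pan-fiber genes, *Mybpc2* thus stayed far above WT, the value of *Mybpc1* no longer exceeded 1.5-fold, and *Mybph* was lower in KO in place of level. The pan-fiber list holds genes that are themselves part of the comparison, so this scale shows unequal change and not which genes stayed constant.

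**Figure D2:**
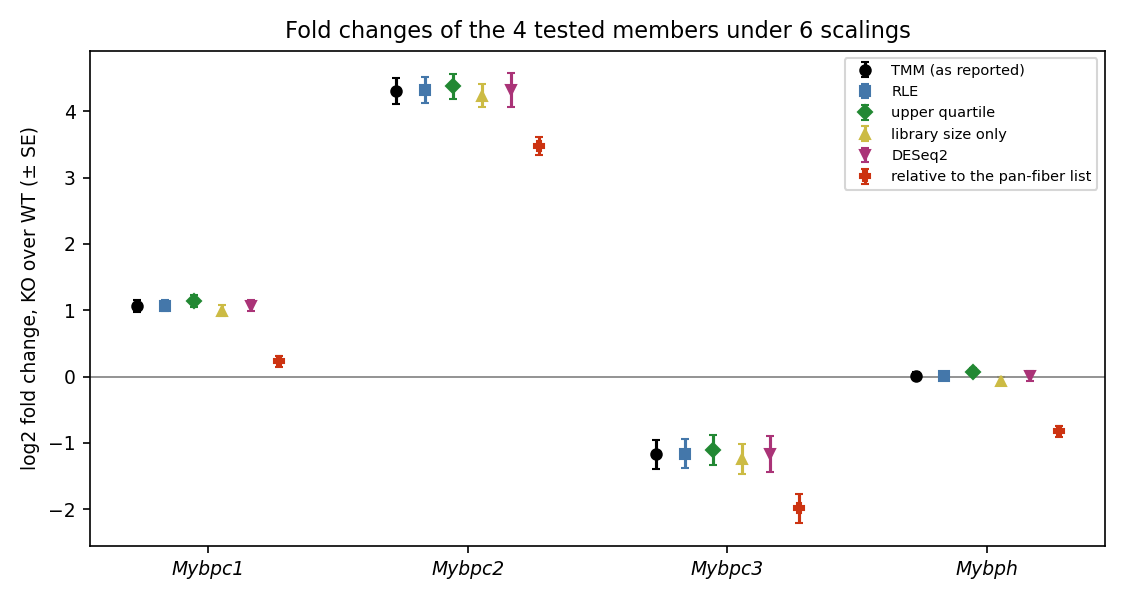
Log2 fold change of KO over WT (points, with standard error bars) of the 4 tested members with TMM, 4 other ways of scaling or testing, and the scale set by the pan-fiber list. *Mybpc2* lies between 3.47 and 4.38 throughout, and the pan-fiber scale lowers each of the 4 genes.

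The other genes of the thick filament were examined next. Of 21 tested genes for myosin chains, titin, the myomesins and other sarcomere proteins, 15 were called higher in KO and 0 lower, with a median log2 fold change of 0.89, against 8.31% called higher and a median of -0.0041 over all genes tested. The adult fast heavy chains *Myh1* (3.10) and *Myh2* (2.42) had the highest values (adjusted p = 1.82e-06 and 1.41e-08, edgeR's quasi-likelihood test). The perinatal heavy chain *Myh8* had 4710 ± 501 CPM for WT and 14165 ± 1457 for KO (SD, n = 3 per genotype) and was called higher (1.59), and the slow heavy chain *Myh7* rose by 0.93. *Myh3*, the embryonic heavy chain, was level at 3908 ± 151 and 3799 ± 127 CPM, like *Mybph*, and its value of -0.04 changed sign with upper-quartile factors (0.027). *Ttn*, the scaffold that carries the binding sites of MyBP-C, rose by 0.88. The lowest values were those of *Myl4*, an embryonic light chain (-0.11, adjusted p = 0.115), and *Myh7b* (-0.35), which passed the adjusted p (2.57e-04) but not the fold change.

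*Mybpc2* was then placed among genes of fiber type. All 14 genes of a fast fiber list were called higher in KO, with a median log2 fold change of 1.495. Over all genes tested, 8.31% were called higher and 8.39% lower, with a median of -0.0041. The highest were *Pvalb* (4.19), the calcium buffer parvalbumin of fast fibers, and *Myh1* (3.10), and the lowest with at least 5 CPM were *Mylpf* (1.20), a fast light chain, and *Myh4* (0.96). Of 12 slow fiber genes, 7 were called higher and 0 lower, with a median of 0.74. Among those with at least 5 CPM, *Myl2* (1.65) and *Myoz2* (1.22) were highest, and *Atp2a2* (-0.08, adjusted p = 0.220) and *Tnni1* (-0.19, adjusted p = 0.00634, under 1.5-fold) lowest, by edgeR's quasi-likelihood test. The value of *Mybpc2* (4.31, standard error 0.19), by which the family was chosen, and that of *Pvalb* (standard error 0.21) lay within their standard errors of each other. That of *Mybpc1* (1.07) lay among the slow genes that were called. It also lay between *Myh4* and *Mylpf* of the fast list and beside *Des* (1.06) of the pan-fiber list, so it does not tell fiber types apart.

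**Figure D3:**
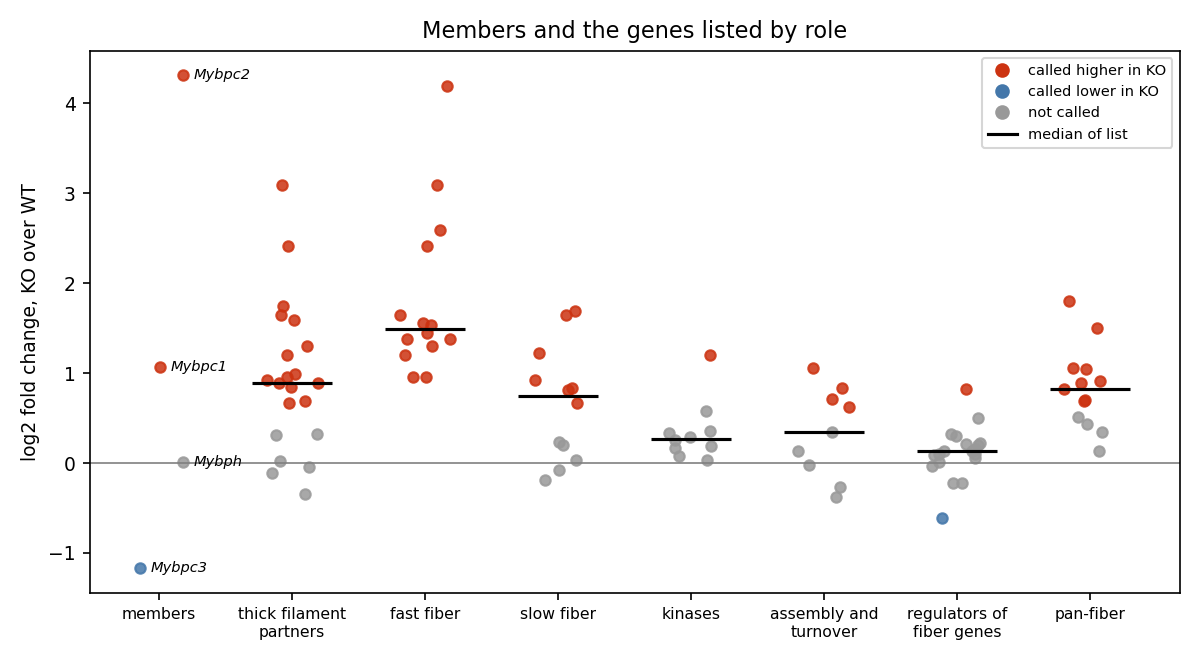
Log2 fold change of KO over WT of the 4 tested members (named) and of the tested genes in each list, with genes called higher in red, lower in blue and not called in gray, and a black line at the list's median. *Mybpc2* sits at the top at 4.31 and *Mybpc3* at the bottom at -1.17.

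MyBP-C is regulated by phosphorylation, best known for protein kinase A and CaM kinase II acting on the cardiac isoform. Of 10 genes for subunits of these and related kinases, 1 was called higher and 0 lower, with a median of 0.27. Over all genes tested, 8.31% were called higher and 8.39% lower. *Camk2b*, the beta subunit of CaM kinase II, was called higher, with 42.1 ± 3.48 CPM for WT and 97.2 ± 9.24 for KO (SD, n = 3 per genotype) and a log2 value of 1.21. *Prkaca*, the catalytic subunit of protein kinase A, had a value of 0.57 just under the 1.5-fold threshold, which it passed without WT replicate 2 (0.59), without KO replicate 1 (0.67) or with upper-quartile factors (0.64). *Prkce* (0.08) and *Prkar1a* (0.04, and -0.030 with library size only) were not called. Of 9 genes for thick filament assembly and turnover, 4 were called higher and 0 lower, against the same shares, with a median of 0.35. *Trim54* (1.06) and *Trim63* (0.83), ubiquitin ligases of the sarcomere, were highest, and the myosin chaperone *Hsp90aa1* (-0.37) and the protease *Capn1* (-0.27) were lowest without reaching 1.5-fold.

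Among 19 transcription regulators of fiber genes, 1 was called higher and 1 lower, with a median of 0.13. The shares over all genes tested were 8.31% higher and 8.39% lower. *Myf6*, a myogenic factor of maturing fibers, rose, with 38.2 ± 1.003 CPM for WT and 67.5 ± 5.97 for KO (SD, n = 3 per genotype, log2 value 0.82, adjusted p = 5.58e-06 by edgeR's quasi-likelihood test). *Eya1*, a transcription cofactor, had a value of 0.50 and was called only without KO replicate 1 (0.59). *Tead4*, a TEAD factor, was lower, with 39.2 ± 2.69 CPM for WT and 25.7 ± 0.784 for KO (SD, n = 3 per genotype) and a log2 value of -0.61. That call was lost without WT replicate 2 (-0.56), without KO replicate 1 (-0.58) and with upper-quartile factors (-0.54). *Myog*, encoding myogenin, had a value of -0.22 (adjusted p = 0.00212), under 1.5-fold.

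The nearest protein-coding genes that do not overlap a member were examined on each side. *Mybph* has *Myog* 88756 bases away and *Chil1* on the other side at 3266 bases, which was called lower in KO (20.2 ± 1.04 CPM in WT, 7.25 ± 0.968 in KO, SD, n = 3, log2 value -1.48). *Mybpc2* lies 212 bases from *Fam71e1* (0.40) and 1336 bases from *Spib* (-0.48), and neither was called. Beside *Mybpc1*, *Chpt1* (0.50) and *Spic* (0.19) were not called, and beside *Mybpc3* neither were *Spi1* (0.45) and *Madd* (-0.57). Next to *Mybphl*, *Sort1* (-0.02) and *Psrc1* (-0.30) were not called. Of these 10 neighbors, 1 was called, against 16.7% of all genes tested, and nothing is read from this count.

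Finally, the genes with the most similar profile were found for each tested member. Likeness was the Euclidean distance between mean-centered log2 CPM values over the 6 samples, among 12370 other genes with a mean of at least 5 CPM. *Mybpc2* was nearest to *Pvalb* (distance 0.24), followed by *Plin4* (0.46), a perilipin of lipid droplets, and *Gm6969* (0.69). For *Mybpc2* this distance mostly reflects the difference between genotypes by which the family was chosen. Its nearest genes are thus those with a similar log2 fold change (4.19, 3.96 and 4.51), and nothing further is read from them. *Pvalb* had 1.08, 0.641 and 1.12 CPM in WT and 13.4, 20.2 and 19.0 CPM in KO, so that its lowest samples were also WT replicate 2 and KO replicate 1. This order is not particular to the pair. The geometric mean of the pan-fiber genes was lowest in the same samples (258 CPM in WT replicate 2 and 431 CPM in KO replicate 1). *Mybpc1* was nearest to *Pgm1* (0.076), a glycogen enzyme, *Hspb6* (0.080), a small heat shock protein, and *Ttc9* (0.085). *Mybpc3* was nearest to *Cnmd* (0.35) and *Col9a3* (0.35), both cartilage genes, and *Nefm* (0.42), a neurofilament gene. For *Mybpc1* and *Mybpc3* too, the distance mostly reflects the difference between genotypes. The log2 fold changes of their nearest genes were 1.01, 1.13 and 1.09 for *Mybpc1* and -1.28, -1.19 and -1.14 for *Mybpc3*. Nothing further is read from these genes either. Among the chondrocyte genes listed, *Col2a1*, *Col9a1* and *Matn1* were called lower and *Comp* higher, and the list's sum was 367 to 469 CPM in WT and 318 to 323 CPM in KO. The part of cartilage in the values of *Mybpc3* was not tested. *Mybph* was nearest to *Mbd6* (0.048), *Arrdc1* (0.050) and *Sik1* (0.053), all with a log2 fold change near 0. Distances cannot be compared between members, because a flat profile is near many genes.

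**Figure D4:**
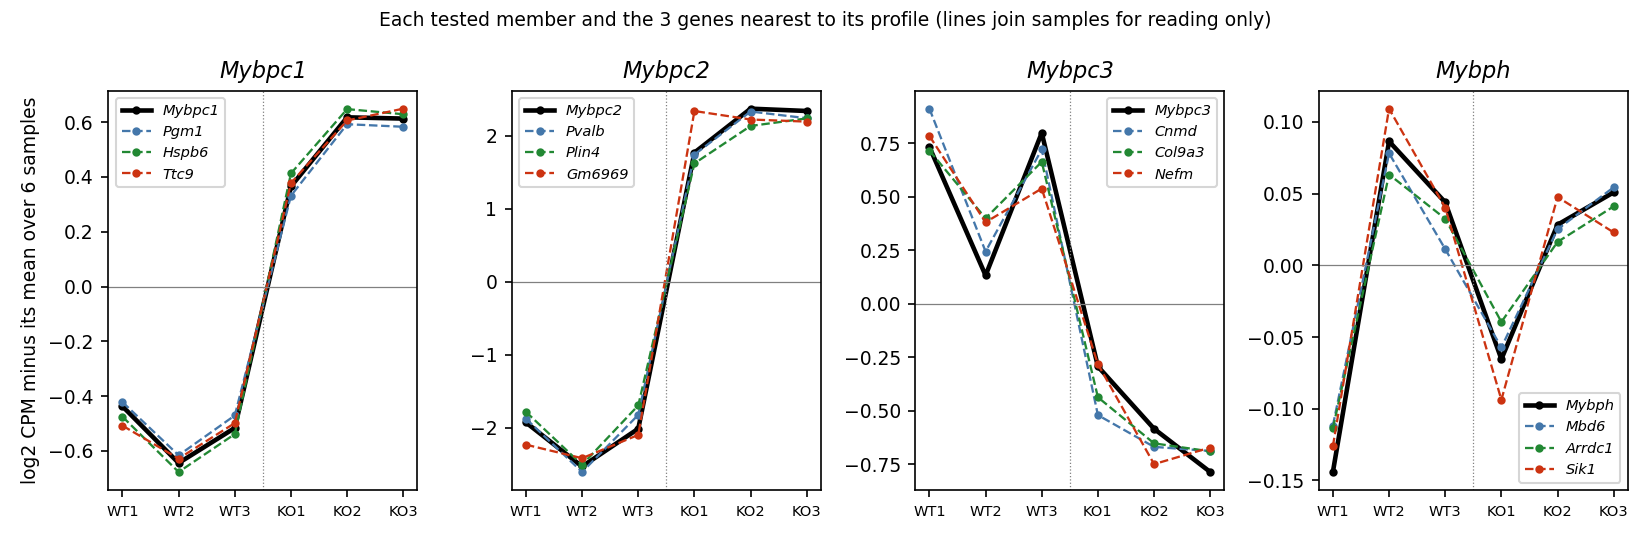
Log2 CPM minus its mean over the 6 samples for each tested member (black) and its 3 nearest genes (dashed), with samples on the x axis, WT left and KO right of the dotted line. In the panel of *Mybpc2*, *Pvalb* and *Plin4* share the dips at WT replicate 2 and KO replicate 1 and *Gm6969* is highest at KO replicate 1, while the *Mybph* panel spans less than 0.3 in all. The mean of the pan-fiber genes, not drawn, was lowest in the same samples as those dips.

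The sample order within genotypes is given beside muscle fiber genes and the other tissues. The sum of the 13 pan-fiber genes was lowest in WT replicate 2 (6490 CPM against 6707 in replicate 1 and 6829 in replicate 3). In KO it was lowest in replicate 1 (10715 CPM against 12254 and 12398). In WT, replicate 2 had the lowest levels of *Mybpc1*, *Mybpc2* and *Mybpc3*, the highest of *Mybph* and the highest keratinocyte sum (26380 CPM against 17740 in replicate 1 and 19723 in replicate 3). It also had the lowest adipocyte sum (114 CPM against 147 and 143). In KO, replicate 1 had the lowest levels of *Mybpc1*, *Mybpc2* and *Mybph*, the highest of *Mybpc3*, the lowest keratinocyte sum (810 CPM against 945 and 897) and the lowest adipocyte sum (360 CPM against 421 and 406). The chondrocyte sum was lowest in WT replicate 2 (367 CPM against 468 and 469) and highest in KO replicate 1 (323 CPM against 318 and 321). The part of muscle fiber and of these tissues in the order of the replicates was not tested. Without WT replicate 2 the log2 fold change of *Mybpc2* was 4.15, and without KO replicate 1 it was 4.49.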

How the data were processed

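Leg muscle RNA of 3 WT and 3 KO fetal samples was sequenced. Per the labels and methods, the authors used Trim Galore (v0.6.6), Hisat2 (v2.2.1, mm10) and featureCounts (v2.0.1). They deposited raw counts per gene as whole numbers, without normalization. The gene annotation used for counting and its strand setting are not given in the sources used here. The tables per sample and the table of the series differed in 0 values.

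Symbols, positions and exon lengths were taken from GENCODE M21 (mm10) by Ensembl ID without version (55227 of 56262 IDs matched), and promoters from RefSeq (GRCm38.p6), which held all 5 members. A further motif that was searched is not reported here. Counts were analysed in R 4.3.3 with edgeR 4.0.16 (filterByExpr, TMM, quasi-likelihood F-test, genotype alone), with Benjamini-Hochberg adjustment over 22071 genes. A call needed more than 1.5-fold change and an adjusted p below 0.05. Levels between genes were compared as CPM per kb of merged exons. Replicates of a genotype differed by more than counting noise (mean chi-square per gene 4.85 to 32.9), and p-values measure only the spread between these samples, which may be technical. Members and lists were chosen with earlier results of these data known. Named genes are all members, the 2 highest and 2 lowest of each list with a mean of at least 5 CPM, further thick filament genes, the nearest protein-coding genes and the 3 most similar genes per member. *Gm44646*, *Gm48752*, *Gm12522*, *Adora1* and the listed markers named singly were named after their values were seen. Alternatives were RLE, upper-quartile and library-size scaling, a pan-fiber scale, DESeq2 1.42.0, limma-voom (limma 3.58.1), other filters, a replicate block, a fold change over 2, another gene length, raw counts per kb, the tables per sample, and leaving out each sample. On simulated counts of 22071 genes, edgeR called 98 of 100 genes changed 2-fold and 100 of 100 changed 4-fold, with 9 unchanged genes called. The simulation changed only 200 genes, as many up as down, and none of low mean level. In the data 16.7% of genes were called, so this recovery does not carry over to so wide a change or to genes with few counts.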

Additional observations from a re-analysis of the deposited data

How the results depend on the processing

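The direction and call of *Mybpc2* and *Mybpc3* held under all 15 alternatives tried for each, and that of *Mybpc1* under 14 of 15, the exception being the pan-fiber scale (0.23). Leaving out 1 sample at a time gave log2 fold changes of 4.15 to 4.49 for *Mybpc2*, 1.01 to 1.15 for *Mybpc1*, -1.35 to -1.04 for *Mybpc3* and -0.061 to 0.051 for *Mybph*. *Mybph* also changed sign with library size only (-0.062) and on the pan-fiber scale (-0.83), as did *Prkar1a* with library size only (-0.030) and *Myh3* with upper-quartile factors (0.027). The labels link same-numbered WT and KO samples by nothing beyond the number, and their deviations correlated at -0.20, -0.13 and 0.047. With 3 samples per genotype, these values cannot settle whether such samples shared a batch or preparation. With the replicate number as a replicate block, the values of *Mybpc2*, *Mybpc1*, *Mybpc3* and *Mybph* were 4.30, 1.06, -1.15 and 0.0092, and 1744 genes were called higher and 1777 lower. The block changed no call of the members. With the longest transcript as gene length, the KO share of *Mybpc1* was 89.2% and that of *Mybph* 5.20%. A fold change over 2 left 774 genes called higher, with 7 thick filament partners, 3 slow fiber genes, 1 assembly or turnover gene and 4 pan-fiber genes higher, and 0 fiber gene regulators in either direction. Upper-quartile factors gave 2 kinase genes higher and 0 regulators lower. Leaving out 1 sample gave 1 to 2 kinase genes higher, 1 to 2 regulators higher and 0 to 1 lower. The cause of these shifts was not tested. Depth limits *Mybphl* and *Mybpc3*, whose counts were at most 19 and 125 in any sample.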
